A study of Homo sapiens with 11 samples.

Results

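The genes described here make and use microRNAs, the short RNAs that lower the output of messenger RNAs carrying a matching site. A primary transcript is cropped in the nucleus by DROSHA with its partner DGCR8, and the hairpin that results is carried out by XPO5. In the cytoplasm DICER1 cuts the loop off with its partner TARBP2. One strand is then held by an Argonaute such as AGO2 or AGO3, and the GW182 proteins TNRC6A and TNRC6B couple the Argonaute to deadenylation and decay of the target. DIS3L2, an exonuclease that prefers RNAs ending in added uridines, degrades let-7 precursors that LIN28 proteins have marked for uridylation. A short hairpin RNA (shRNA) made in the cell enters at the export and dicing steps and acts through an Argonaute.

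The 10 genes were chosen by name, and all probes that the annotation of the array assigns to them were taken, with older symbols updated through the gene ID. This gave 20 probes for 10 genes, out of 48803 probes and 18852 named genes on the array. Of the 20 probes, 13 were kept for the tests, with at least 1 for each of the 10 genes. A probe was kept when its detection p, its rank among negative control probes, was under 0.01 on at least 5 of the 11 arrays.

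The cells were NT2D1, a human embryonal carcinoma line that is pluripotent and can be driven to neurons, stably carrying the TetR3 repressor and an L1TD1 shRNA. The groups were 6 samples induced with doxycycline (dox+), in which the hairpin is made, and 5 non-induced samples (dox-), all collected on day 6. The design text describes 6 clones with an induced and a non-induced sample each, less 1 sample that the submitters removed because it fell outside its group, so both groups carry the integrated constructs and doxycycline itself was given only to dox+ cells. The effect of doxycycline and that of the hairpin therefore cannot be told apart. The titles carry the prefix 1 (3 dox+ and 3 dox- samples) or 5 (3 dox+ and 2 dox- samples), and the array file heads the same samples shRNA1 and shRNA5; no label says what the prefixes stand for.

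Both groups carried the embryonal carcinoma markers, with 8 of the 9 probed genes above background on every array and ZFP42 on none. The log2 of the summed signal of the 9 probed genes was 15.2 to 15.5 in dox+ samples and 15.2 to 15.5 in dox- samples. Of the 6 neuron markers 4 were above background on every array. The log2 of the summed signal of all 6 was 11.3 to 12.2 in dox+ samples and 11.8 to 12.4 in dox- samples. Fibroblast and mesenchyme markers gave 10.7 to 11.9 in dox+ and 11.3 to 12.0 in dox- samples, and endoderm markers 6.7 to 7.1 and 6.9 to 7.2. Trophoblast markers went the other way, 7.6 to 8.6 in dox+ and 7.3 to 8.0 in dox- samples. Blood cell markers gave 6.2 to 6.6 in both. The part of these markers in the results below was not tested. In bulk RNA, fewer cells of a type and less RNA per cell cannot be told apart. L1TD1, the target of the hairpin, averaged 7.84 ± 0.37 in dox+ samples and 8.74 ± 0.17 in dox- samples (log2, SD, n = 6 and 5). That left 53.4% of the signal, the groups did not overlap, and the adjusted p was 0.0753 in limma. Over 22 alternative settings that p ran from 0.0351 to 0.240, and L1TD1 passed the threshold in 2 of them, without dox+ sample 5 (0.0351) and with array weights (0.0453), while the replicate block gave 0.240. Between 13301 and 15127 probes were above background per array. Dox- sample 3 had the lowest mean correlation with the other arrays, 0.959 against up to 0.977. Dox+ sample 6 was next at 0.962, and dox+ sample 5 was at 0.971. The deviation of dox- sample 3 from its group ran along that of dox+ sample 5, so the members are also given without dox- sample 3 and dox+ sample 5. The number of arrays limits the precision, and since no label says that the samples came from separate cultures beyond the clones, p-values measure the spread between these samples.

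The substrates of this machinery were not measured, because the arrays carry probes for messenger RNAs. A pair of let-7 precursors are shown to place the members. Such hairpins are either diced and held by an Argonaute or, once marked for uridylation, degraded by DIS3L2, and DIS3L2 is best known to act on them. In the RefSeq sequences of build GRCh38.p14 below, the first run of capitals is the mature 5p arm that an Argonaute holds, and the second is GGAG, the loop motif that LIN28 proteins bind.
let-7a-1, chr9:94175957-94176036, plus strand: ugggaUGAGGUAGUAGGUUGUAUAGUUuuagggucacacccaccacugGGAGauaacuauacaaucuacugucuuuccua
let-7g, chr3:52268278-52268361, minus strand: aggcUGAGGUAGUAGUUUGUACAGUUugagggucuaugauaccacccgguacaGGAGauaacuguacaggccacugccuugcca
Both arms are 22 bases long and share the seed GAGGUAG (bases 2 to 8). Of 11 let-7 hairpins in the table, 9 hold GGAG.

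Over all 11 samples, 0 of the 13 member probes passed an adjusted p under 0.05 in limma, where 6 of 14338 probes did (0.0418%). At an unadjusted p under 0.05 there were 2 of 13, DIS3L2 and TNRC6B, against 16.2% of all probes. By sign alone 5 probes were higher and 8 lower in dox+ samples. The median absolute log2 difference was 0.15 for the members and 0.17 for all tested probes. The 95% intervals of the 13 probes together ran from -0.75 to 0.65, so they extend to a 1.57-fold higher and a 1.68-fold lower signal. Within a group the samples of a member probe had an SD from 0.12 for DIS3L2 to 0.39 for the dimmer TNRC6A probe, with a median of 0.27 against 0.28 for all tested probes. Without dox- sample 3 and dox+ sample 5, again 0 of 13 passed, DIS3L2 differed by 0.27, TNRC6B by -0.33, AGO3 (ILMN_1761049) by 0.41, DROSHA by 0.19 and AGO2 by -0.14.

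**Figure D1:**
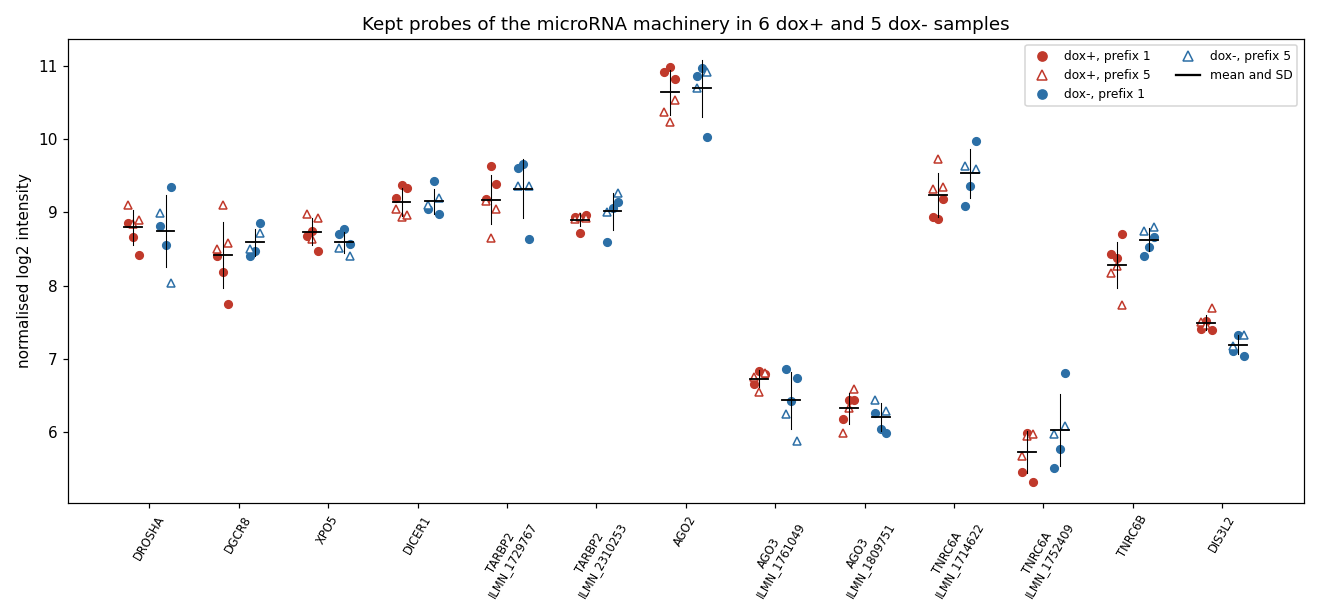
Normalised log2 intensity of the 13 kept member probes in each sample, dox+ (red) left of dox- (blue), filled circles for prefix 1 and open triangles for prefix 5, with black lines for the mean and SD. The groups overlap for every probe except that of DIS3L2, whose dox+ samples lie at 7.40 to 7.69 and dox- samples at 7.04 to 7.32.

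The cropping pair did not pass the test. DROSHA, the nuclear RNase III enzyme, lay between 8.41 and 9.10 in dox+ samples with a median of 8.85, against 8.04, 8.55, 8.81, 8.996 and 9.35 in dox- samples. The spread of the dox- samples enclosed all dox+ samples. The difference was 0.05 ± 0.20 (log2, SE), with an interval of -0.39 to 0.48. A second DROSHA probe was above background on no array.

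DGCR8, which binds the hairpin stem beside DROSHA, lay between 7.75 and 9.10 in dox+ samples with a median of 8.45, against 8.41, 8.47, 8.50, 8.73 and 8.85 in dox- samples. Dox+ samples 3 and 5 were the lowest and the highest of all 11. The difference was -0.17 ± 0.20, with an adjusted p of 0.704 in limma. It was -0.038 without dox+ sample 3 and -0.31 without dox+ sample 5.

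XPO5, the exporter of hairpins, lay between 8.48 and 8.97 in dox+ samples with a median of 8.71, against 8.41, 8.51, 8.56, 8.70 and 8.77 in dox- samples. The difference was 0.15 ± 0.13, and XPO5 was higher in dox+ in 2 of 5 same-numbered pairs of samples.

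DICER1 gave 1 kept probe of 4, and the other 3 were above background on no array. It lay between 8.94 and 9.37 in dox+ samples with a median of 9.12, against 8.98, 9.05, 9.10, 9.20 and 9.43 in dox- samples. The difference was -0.01 ± 0.13, with an interval of -0.30 to 0.27, and among the members this was the smallest difference.

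TARBP2, the double-stranded RNA binding partner of DICER1, had 2 kept probes. Through ILMN_1729767 it averaged 9.18 ± 0.33 in dox+ samples and 9.33 ± 0.41 in dox- samples, a difference of -0.15 ± 0.20. Through ILMN_2310253 it averaged 8.90 ± 0.09 in dox+ samples and 9.02 ± 0.25 in dox- samples, a difference of -0.12 ± 0.13. With single samples left out the first ranged from -0.32 to -0.046 and the second from -0.22 to -0.056. As reported, the 2 differences were alike in sign and size, but over the 11 samples the probes correlated at r = -0.35, so sample by sample they did not follow one another.

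AGO2, the human Argonaute that can cut a fully matched target, lay between 10.24 and 10.98 in dox+ samples with a median of 10.68, against 10.03, 10.70, 10.87, 10.91 and 10.97 in dox- samples. Dox- sample 3 was the lowest of all and dox+ sample 5 the next lowest. The difference was -0.05 ± 0.19, with an adjusted p of 0.921 in limma.

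AGO3, an Argonaute that also loads microRNAs, was read by 2 kept probes that did not follow one another (r = 0.02). Through ILMN_1761049 it lay between 6.55 and 6.83 in dox+ samples with a median of 6.77, against 5.88, 6.25, 6.43, 6.73 and 6.87 in dox- samples. The dox- samples reached both below and above the dox+ samples, and the difference was 0.30 ± 0.17 with an adjusted p of 0.387 in limma. It was 0.16 without dox- sample 5 and also 0.16 with no background correction, and up to 0.41 when another single sample was left out. Through ILMN_1809751 the difference was 0.12 ± 0.14.

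TNRC6A, a GW182 protein that binds Argonautes, had 2 kept probes with nearly equal differences, -0.29 ± 0.18 for ILMN_1714622 and -0.30 ± 0.21 for ILMN_1752409. Over the 11 samples these probes correlated at r = 0.74, and at r = 0.52 without dox- sample 3 and dox+ sample 5; without those samples the dimmer probe differed by -0.15. The brighter one lay between 8.91 and 9.73 in dox+ samples with a median of 9.25, against 9.09, 9.35, 9.60, 9.64 and 9.98 in dox- samples, and the dimmer one was above background in 4 of 6 dox+ and 3 of 5 dox- samples. Another TNRC6A probe, ILMN_1739573, was above background in 0 of 6 dox+ and 2 of 5 dox- samples and was not kept; its dox- mean was under the detection level of the dox+ arrays, so no fold is given.

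TNRC6B, its paralogue, lay between 7.74 and 8.70 in dox+ samples with a median of 8.32, against 8.40, 8.53, 8.67, 8.75 and 8.80 in dox- samples. Dox+ samples 4, 5 and 6 were below every dox- sample, and of dox+ samples 1, 2 and 3 only sample 2, at 8.38, was so. The difference was -0.35 ± 0.16, with an interval of -0.69 to -0.0045. The limma p was 0.0474 before adjustment and 0.301 after it. With the replicate number as a block the difference was -0.24, with an adjusted p of 0.483. That fit takes nothing from dox+ sample 6, which has no same-numbered dox- sample. Leaving out only dox+ sample 6 also gave -0.24, with an adjusted p of 0.461 in limma. The other 2 TNRC6B probes were above background on no array.

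DIS3L2 lay between 7.40 and 7.69 in dox+ samples with a median of 7.48, against 7.04, 7.10, 7.18, 7.32 and 7.32 in dox- samples. All 6 dox+ samples were above all 5 dox- samples. That dox+ was higher in 5 of 5 same-numbered pairs follows from this and adds nothing to it. DIS3L2 was the only member probe without overlap, 1 of 13. Of all probes 2.16% were without overlap in either direction and 1.05% had all dox+ samples above. The difference was 0.30 ± 0.12 (interval 0.05 to 0.55), 1.23-fold. The limma p was 0.0205 before adjustment and 0.222 after it. With the replicate number as a block the difference was 0.26, with an adjusted p of 0.370. It was also 0.26 when only dox+ sample 6 was left out, with an adjusted p of 0.341 in limma. When arrays were scaled to a common median the groups overlapped. Under that scaling DIS3L2 differed by 0.24, and the median difference of all probes was -0.078, against -0.0035 in the main fit.

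**Figure D2:**
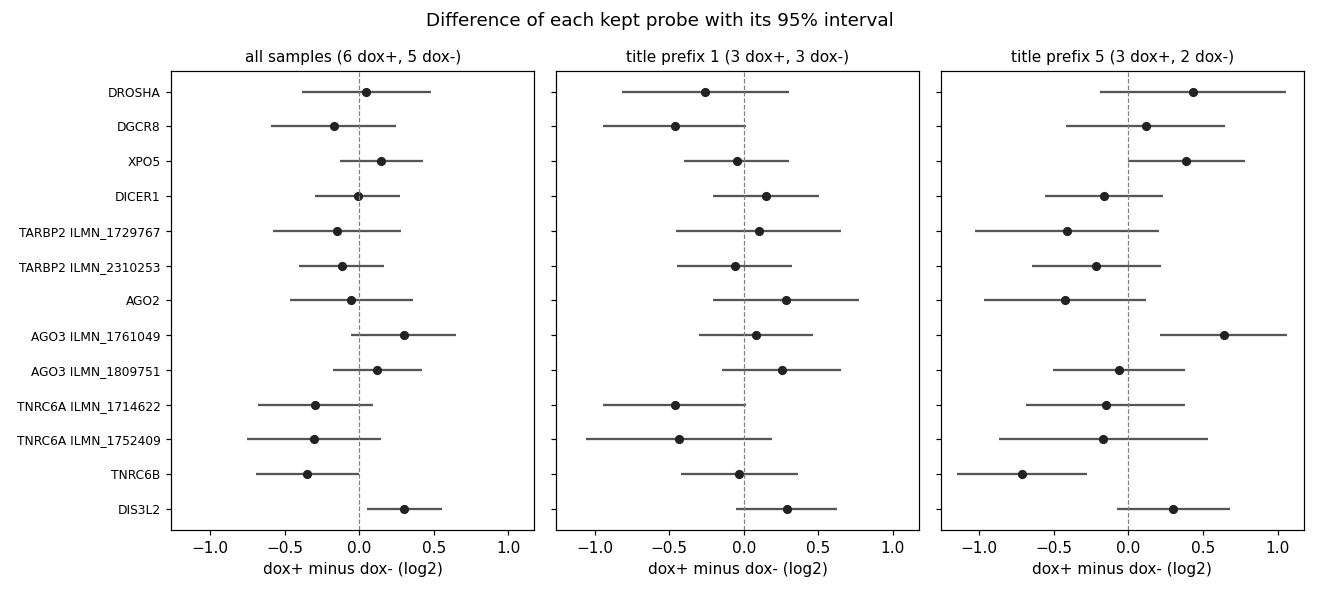
Log2 difference, dox+ minus dox-, of each kept member probe (point) with its 95% interval (line), over all samples, within prefix 1 and within prefix 5. Over all samples the intervals of TNRC6B (-0.69 to -0.0045) and DIS3L2 (0.05 to 0.55) leave out 0, and within prefix 5 those of TNRC6B and of AGO3 through ILMN_1761049 do.

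Within each title prefix the members were compared in one model that shared the spread of all 11 samples. In prefix 1, 0 of 13 member probes passed an adjusted p under 0.05, against 4.87% of all probes, and 0 of 13 passed unadjusted, against 24.0%. The count of all probes past the threshold there, 698, was 1 without dox- sample 1, 2 without dox+ sample 3, 3 without dox+ sample 1 and 41 without dox- sample 3. It was 1052 without dox+ sample 2, 837 without dox- sample 2, 904 from the authors' values and 1356 with the replicate block. The groups of 2 of 13 member probes did not overlap in prefix 1, DGCR8 lower and DIS3L2 higher in dox+, against 28.8% of all probes. In that count DIS3L2 follows from its separation over all samples. Without dox- sample 1 that count was 5 of 13, against 35.0% of all probes. DGCR8 averaged 8.11 ± 0.33 in dox+ and 8.58 ± 0.24 in dox- samples of prefix 1 (SD, n = 3 each), a difference of -0.46 ± 0.22 with an adjusted p of 0.221 in limma. The brighter TNRC6A probe had a difference of -0.46 ± 0.22 as well. With single samples of prefix 1 left out, DGCR8 ranged from -0.61 (without dox+ sample 1) to -0.29 (without dox+ sample 3), and TNRC6A from -0.66 (without dox- sample 1) to -0.21 (without dox- sample 3).

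In prefix 5, 0 of 13 member probes passed an adjusted p under 0.05, where 0% of all probes did. At an unadjusted p under 0.05 there were 2 of 13, TNRC6B and AGO3, against 5.89% of all probes. TNRC6B averaged 8.06 ± 0.28 in dox+ and 8.77 ± 0.03 in dox- samples (SD, n = 3 and 2), a difference of -0.71 ± 0.20. For TNRC6B limma gave an unadjusted p of 0.00364 and 0.785 after adjustment. AGO3 through ILMN_1761049 averaged 6.70 ± 0.14 in dox+ and 6.07 ± 0.26 in dox- samples, a difference of 0.64 ± 0.20 with an unadjusted p of 0.00646. Its second probe had a difference of -0.06 ± 0.21 there, so the 2 AGO3 probes did not share a sign. From the authors' quantile-normalised values the AGO3 difference in prefix 5 was 0.33.

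The groups of 9 of 13 member probes did not overlap in prefix 5, against 23.8% of all probes. XPO5, AGO3 and DIS3L2 were the 3 higher in dox+. DICER1, both TARBP2 probes, AGO2, the dimmer TNRC6A probe and TNRC6B made up the 6 lower. DIS3L2 is in this count through its separation over all samples. Without dox+ sample 5 the count was 10 of 13, against 40.9% of all probes. The median absolute difference of the members there was 0.30, against 0.18 for all tested probes. These probes are not independent of each other, and with 3 against 2 samples none of them passed the adjusted test.

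The difference between the prefixes was tested as an interaction. It passed an adjusted p under 0.05 for 0 of 13 member probes, against 0.0209% of all probes, and an unadjusted one for 1 of 13, against 12.3%. That probe was TNRC6B, whose effect in prefix 5 minus that in prefix 1 was -0.68 ± 0.27. The unadjusted limma p of this difference was 0.0253, and 0.350 after adjustment. In prefix 1 TNRC6B averaged 8.50 ± 0.17 in dox+ and 8.53 ± 0.13 in dox- samples. DIS3L2 differed by 0.29 ± 0.16 in prefix 1 and 0.30 ± 0.17 in prefix 5, and the difference between these was 0.01 ± 0.23, with an interval of -0.49 to 0.52.

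**Figure D3:**
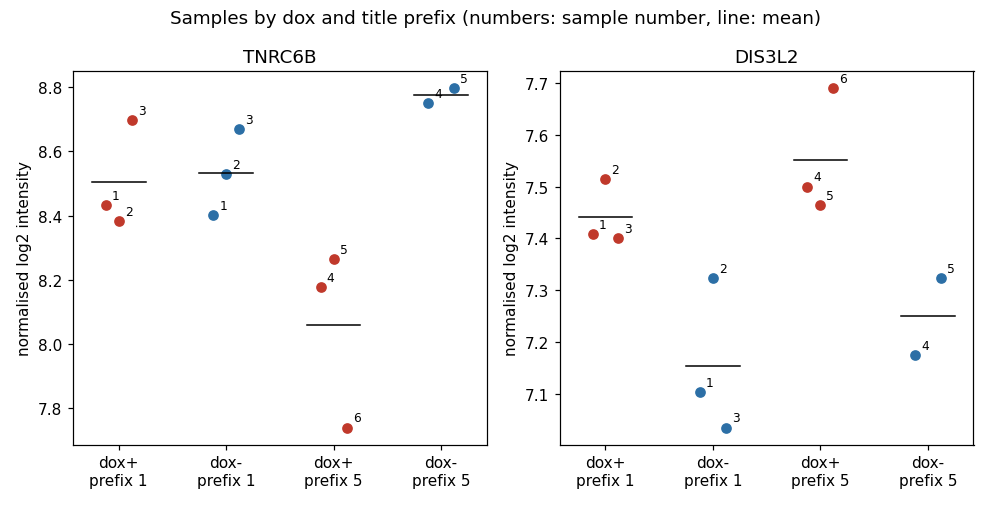
Normalised log2 intensity of TNRC6B (left) and DIS3L2 (right) in each sample, by dox and title prefix, with the sample number beside each point and a line at the mean. TNRC6B differs by -0.71 in prefix 5 and -0.03 in prefix 1, and DIS3L2 by 0.30 and 0.29.

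The level of the members, with dox in the model, passed an adjusted p under 0.05 between prefix 5 and prefix 1 for 0 of 13 probes, against 0.0767% of all probes, and an unadjusted one for 0 of 13, against 11.4%. The differences ran from -0.30 for AGO3 (ILMN_1761049) to 0.36 for DGCR8.

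Across the 11 samples some members followed one another. These correlations are descriptions over samples of both groups that share arrays and normalisation. AGO2 went with TARBP2 (ILMN_1729767) at r = 0.90 and with DICER1 at r = 0.78, and DICER1 with TARBP2 (ILMN_1729767) at r = 0.75. The other TARBP2 probe, ILMN_2310253, gave r = -0.23 with AGO2 and 0.03 with DICER1, so the TARBP2 values hold for 1 of its 2 probes. AGO2 ran against TNRC6A (ILMN_1714622, r = -0.73) and XPO5 against TNRC6B (r = -0.85), while TNRC6B and DIS3L2 gave r = -0.71. TARBP2 (ILMN_2310253) with AGO3 (ILMN_1761049) gave r = -0.72. These were the lowest values among all pairs of kept member probes, and were picked for that. The dimmer TNRC6A probe gave r = -0.59 with AGO2, and the other AGO3 probe r = -0.27 with TARBP2 (ILMN_2310253). Over the 9 samples without dox- sample 3 and dox+ sample 5 AGO2 gave 0.72 with TARBP2 (ILMN_1729767), 0.73 with DICER1 and -0.34 with TNRC6A (ILMN_1714622). DICER1 with that TARBP2 probe gave 0.65, XPO5 with TNRC6B -0.88, and TNRC6B with DIS3L2 -0.70. AGO2 with the dimmer TNRC6A probe gave -0.044 there, and TARBP2 (ILMN_2310253) with AGO3 (ILMN_1761049) -0.835. Among 9853 other genes, those most like DICER1 were KCNJ4 (r = 0.95), TOX2 (0.89) and CCDC92 (0.89). Those most like AGO2 were ZNF275, RANGAP1 and EMD, each at r = 0.95. Without those samples the values were 0.93, 0.92 and 0.84 for the genes like DICER1 and 0.87, 0.85 and 0.89 for those like AGO2.

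The wider pathway was read from a list of 67 genes in 9 roles, of which 61 had a kept probe. By the brightest probe of each gene 29 were higher and 32 lower in dox+ samples, with a median difference of -0.01 against 0.01 for all 9854 measured genes. After adjustment 0 of 61 passed in limma, and 8 passed unadjusted (13.1%, 3 higher and 5 lower), against 16.1% of all measured genes. Of these 8, 2 are the members DIS3L2 and TNRC6B.

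CNOT4, a ubiquitin ligase listed here with the genes of the CCR4-NOT deadenylase, averaged 8.16 ± 0.30 in dox+ and 8.86 ± 0.23 in dox- samples. Its groups did not overlap, which held for 2 of 61 listed genes (3.28%), the other being DIS3L2, against 2.0% of all measured genes. The CNOT4 difference was -0.70 ± 0.17 with an adjusted p of 0.102 in limma. A dimmer CNOT4 probe differed by -0.06 ± 0.21. SRSF3, a splicing factor that also helps DROSHA find its cut site, averaged 9.82 ± 0.40 in dox+ and 10.50 ± 0.31 in dox- samples, a difference of -0.68 ± 0.20 with an adjusted p of 0.137. These were the 2 listed genes past the adjusted threshold in prefix 1, CNOT4 at -0.995 (adjusted p = 0.0211) and SRSF3 at -1.13 (adjusted p = 0.0187), 2 of 61 against 4.87% of all probes. Neither call held without dox+ sample 1, dox+ sample 3, dox- sample 1 or dox- sample 3, each left out alone, where the adjusted p lay between 0.0650 and 0.0902. In prefix 5 and in the interaction 0 of 61 passed.

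PTGES3, the HSP90 cochaperone p23, differed by -0.55 ± 0.19, and FKBP4, another cochaperone of Argonaute loading, by -0.25 ± 0.13. PAN2, a deadenylase subunit, differed by 0.46 ± 0.18, and SND1, a nuclease linked to small RNA decay, by 0.40 ± 0.16. CNOT9, a CCR4-NOT subunit that binds GW182 proteins, differed by -0.29 and is named after its value was seen. The other genes of the naming rule had smaller differences: DDX5 -0.17, RAN -0.19, PRKRA 0.01, AGO1 -0.21, PABPC1 0.09, DCP1A -0.22, PATL1 -0.16 and ZSWIM8 0.18. None of these passed the adjusted test.

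**Figure D4:**
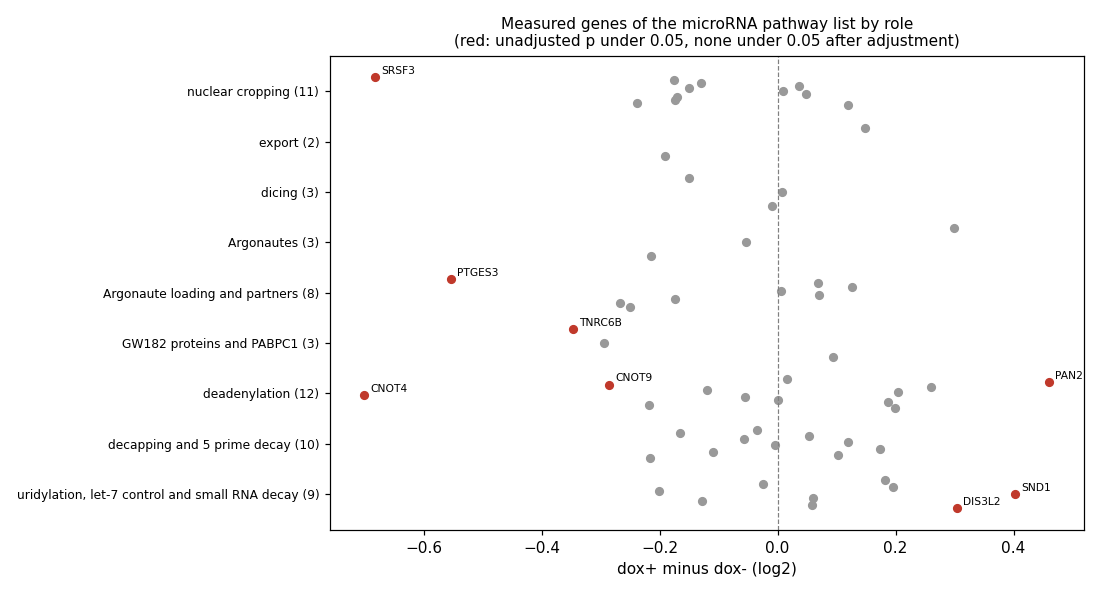
Log2 difference, dox+ minus dox-, of the 61 measured pathway genes by role, with the number measured in each role in brackets. The 8 genes with an unadjusted p under 0.05 are red and named, CNOT4 (-0.70) and SRSF3 (-0.68) lie farthest to the left and PAN2 (0.46) and SND1 (0.40) farthest to the right.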

How the data were processed

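RNA of 11 samples was hybridised to Illumina bead arrays, 1 array per sample. The deposited table holds linear probe intensity values, with no background subtraction apparent, and beside each a detection p-value, per the file headers. The authors' matrix holds the same intensity values after quantile normalisation, as its sorted columns show, and ranks as in the raw columns; the submitters' processing notes name limma.

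The raw values went through limma 3.58.1's neqc (R 4.3.3, statmod 1.5.0), with background taken from the detection p, an offset of 16, log2 and quantiles. The filter asked for detection (p under 0.01) on 5 or more arrays. Dox+ was compared with dox- in limma with no covariate, two-sided, adjusted by Benjamini-Hochberg over all 14338 kept probes. Prefix effects, their interaction and levels came from models with group and prefix. Of all probes 28098 had 1 symbol, 13 several and 20692 were unnamed here. The fits were run on simulated data with independent noise for each probe and planted differences larger than those of the members. Deviations shared by the probes of an array, or by clones or prefixes, were not simulated, so that run does not cover them.

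The members and lists were chosen with earlier results of these data known. Named were all member probes, L1TD1, for each role of the pathway list the 2 other genes with the smallest unadjusted p and any past the threshold, and for DICER1 and AGO2 the 3 most correlated genes. Marker lists other than embryonal carcinoma had on all arrays 4 of 6 genes (neurons), 3 of 6 (fibroblasts and mesenchyme), 0 of 4 (endoderm), 2 of 4 (trophoblast) and 0 of 3 (blood cells).

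The replicate numbers 1 to 5 occur in both groups, and the design text gives 2 samples per clone, but no label states that a number is a clone. The numbers in the titles of same-numbered samples are offset by a constant within each prefix, which goes with a pairing by number. The main comparison did not use this pairing. Dox+ sample 6 has no same-numbered dox- sample, so the replicate block takes nothing from it for the difference. Deviations of same-numbered samples correlated at 0.10, 0.40, -0.06, 0.06 and -0.19, and 1 of 5 dox- samples matched its own number best. Alternatives were the replicate block, prefix as a term, background, scaling, filters, array weights and leaving out each sample. Added after seeing the data were leaving out dox- sample 3 with dox+ sample 5, and a shift of arrays to a common median of the kept probes, chosen after the planned scaling, which multiplies log2 values, had been run.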

Additional observations from a re-analysis of the deposited data

Results flagged for a closer look

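Of 26 groups of member values tested for a sample far from the others, 1 was marked, and chance marks about 1 in 20 groups. TARBP2 through ILMN_2310253 stood at 8.72 in dox+ sample 2, below the other 5 dox+ samples, which lay at 8.91 to 8.97. In dox- samples the same probe lay between 8.60 and 9.26.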

How the results depend on the processing

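Under 22 alternatives to the dox comparison, 0 member probes and 0 pathway genes passed the adjusted threshold in limma. DIS3L2 stayed between 0.21 and 0.34 and TNRC6B between -0.43 and -0.24 in all 22. The count of all probes past the threshold, 6 as reported, was 0 with the replicate block, 21 with the replicate number as a random effect, 1 with no detection filter, 13 with detection on all arrays, 31 with array weights, 1 without both dox- 3 and dox+ 5, and 0 to 26 leaving out single samples. Member probes without overlap numbered 0 under the planned scaling to a common median, where DIS3L2 overlapped, against 1.83% of all probes. Under the shift to a common median added later there was 1, against 2.39% of all probes. Leaving out single samples gave 1 to 2, against 2.42% to 4.92% of all probes (TARBP2 was added without dox- 1). Within prefix 1, leaving out single samples gave 2 to 5, against 35% to 43.2% of all probes.

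Signs turned for several differences, among them 0.43 for DROSHA in prefix 5 and 0.28 for AGO2 in prefix 1. The median difference of all probes was itself -0.078 under the planned scaling and -0.011 under the added shift, against -0.0035 in the main fit. DROSHA over all samples was -0.028 under the planned scaling, and its sign did not turn under the added shift. DICER1 was 0.025 with the replicate block, the same value as without dox+ sample 6 alone, and 0.0074 with prefix as a term. PRKRA was -0.065 under the planned scaling and -0.0067 under the added shift. Leaving out single samples gave -0.13 to 0.20 for DROSHA, -0.055 to 0.058 for DICER1, -0.22 to 0.028 for AGO2 and -0.071 to 0.12 for PRKRA. Without both dox- 3 and dox+ 5, prefix 1 gave TARBP2 -0.23 (ILMN_1729767) and 0.044 (ILMN_2310253), AGO2 -0.013 and TNRC6B 0.038, and prefix 5 gave DGCR8 -0.073. In prefix 1, 1 of 61 pathway genes then passed, where 109 of all 14338 probes did. Leaving out single samples of prefix 1 gave XPO5 -0.11 to 0.028, TARBP2 -0.23 to 0.28 and -0.23 to 0.044, and AGO2 -0.013 to 0.46. It also gave AGO3 (ILMN_1761049) -0.041 to 0.18 and TNRC6B -0.13 to 0.038. In those fits 0 to 3 of 61 pathway genes passed, where 1 to 1052 of all 14338 probes did. Leaving out single samples of prefix 5 gave DROSHA -0.049 to 0.91, DGCR8 -0.073 to 0.23 and AGO3 (ILMN_1809751) -0.21 to 0.091. The cause of these changes was not tested. Signal over background limits 7 of the 20 member probes.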
